A study of Homo sapiens with 16 samples.

Results

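The 47 genes described here are a module of DNA damage repair genes, chosen by symbol from a fixed list. All 47 were found among the 55510 gene symbols counted in each library, and all 47 were among the 22007 symbols with enough counts to be tested. They sense and signal DNA breaks, rejoin them, repair crosslinks and mismatches, or excise damaged bases, and they include BRCA1, BRCA2, ATM, ATR, PRKDC and PARP1. RNA was sequenced from CAL51, a human line derived from triple-negative breast cancer, at passage 10 in all libraries. Cells received CC-671 at 3 µM or 10 µM, or its vehicle DMSO, for 6 h or 24 h. CC-671 inhibits TTK, a kinase of the spindle checkpoint, and CLK2, a kinase that phosphorylates SR splicing factors. The 4 treated groups had 3 libraries each and the 2 DMSO groups had 2 each, which gave 16 libraries, and at each time both doses were set against the same 2 DMSO libraries. The labels speak of biological replicates, and each p-value reflects only how far these libraries spread.

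A double-strand break is recognised by the MRE11-RAD50-NBN complex, which activates the kinase ATM. Single-stranded DNA at stalled forks activates ATR, and the kinases CHEK1 and CHEK2 relay these signals to the cell cycle. Breaks are then rejoined directly by end joining, or copied from a sister chromatid by homologous recombination, which depends on BRCA1 and BRCA2. Interstrand crosslinks are handled by the Fanconi anemia pathway, whose core complex ubiquitylates FANCD2 and FANCI. Cells with impaired homologous recombination depend more on PARP1 activity, a dependence used in the treatment of breast cancer.

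Each library held 104609173 to 123789361 read pairs at genes, of which 465104 to 608240 fell on the 47 repair genes. The lowest count of a repair gene in a library was 454, for RAD51B. Levels are given in CPM, read pairs relative to the library total, scaled by TMM factors of 0.963 to 1.05. The line's labelled identity was checked against markers: the epithelial genes EPCAM, KRT8, KRT18 and KRT19 had 239.7 to 699.9 CPM, and ESR1 and PGR stayed at or under 0.0477 CPM, while ERBB2 had 84.7 to 191.5 CPM. The epithelial gene CDH1 was lower, at 26.2 to 45.2 CPM, and the mesenchymal gene VIM was high, at 208.3 to 343.3 CPM. Of the leukocyte markers, PTPRC had 5.08 to 13.1 CPM and NKG7 had 0 in all libraries, and the 8 markers summed to 10.9 to 11.9 CPM in treated and 10.1 to 10.2 CPM in DMSO libraries at 6 h and to 5.88 to 7.31 and 12.5 to 13.3 CPM at 24 h. Of the 4 tested, 3 rose and none fell at 3 µM at 6 h, led by CD14 (log2 fold change 3.46, at or under 2.91 CPM). In the other comparisons with DMSO, 3 or 2 rose and 1 fell. The 7 fibroblast markers, mostly COL3A1, summed to 318.6 to 338.3 CPM in treated and 277 to 288 CPM in DMSO libraries at 6 h. At 24 h they summed to 269 to 285 CPM in treated and 348.3 to 353 CPM in DMSO libraries. PDGFRB had 30.92 to 72.01 CPM, COL1A2 had 11.43 to 21.9 CPM and COL1A1 had 8.109 to 15.17 CPM. FAP and DCN stayed at or under 0.0255 CPM. Of the 5 fibroblast markers tested, 3 rose and 1 fell at each dose at 6 h. All 5 fell at each dose at 24 h. The 3 endothelial markers found summed to 10.2 to 11.8 CPM in treated and 11.7 to 12.6 CPM in DMSO libraries at 6 h. At 24 h these sums were 8.05 to 10.2 and 18.5 to 18.8 CPM. The part of these markers in the results was not tested. In a bulk sample, fewer cells of a kind and less RNA per cell cannot be told apart.

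Many S phase and repair genes are textbook targets of E2F transcription factors. An E2F motif, taken as TTTCCCGC, TTTCGCGC, TTTGCCGC or TTTGGCGC on either strand, was searched in windows from 250 bases before to 50 bases after the RefSeq start site (GRCh38.p14). Of the 41 repair genes with a window, 7 (17.1%) had the motif, against 4.0% of 27305 genes, and they were FANCA, FANCC, FANCD2, MSH6, PMS2, XRCC2 and XRCC6. Before the start site alone it stood in 3 (7.3%), against 3.4% of all genes. A gene counted if any of its windows held the motif, and some genes had more windows than others. Counted by window, 8 of the 59 windows of the repair genes (13.6%) held it, against 3.3% of 35116 windows. The shorter CCAAT box (CCAAT or ATTGG) was in 23 of the 41 (56.1%), against 39.7% of all genes. Windows of 4 of the 7 are printed because FANCC, FANCD2 and XRCC2 were among the genes that fell most at 6 h, while XRCC6 rose; these 4 were picked with their values known. The sequences run 5′ to 3′ on the gene's strand, and capitals mark the motif on either strand.
FANCC promoter, chr9:95317660-95317959, minus strand: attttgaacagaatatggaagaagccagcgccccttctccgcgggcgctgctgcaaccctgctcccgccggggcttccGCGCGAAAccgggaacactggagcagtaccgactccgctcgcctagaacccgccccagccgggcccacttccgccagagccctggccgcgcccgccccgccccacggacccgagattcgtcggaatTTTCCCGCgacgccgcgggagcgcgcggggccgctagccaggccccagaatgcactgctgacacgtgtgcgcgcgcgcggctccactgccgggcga
FANCD2 promoter, chr3:10026187-10026486, plus strand: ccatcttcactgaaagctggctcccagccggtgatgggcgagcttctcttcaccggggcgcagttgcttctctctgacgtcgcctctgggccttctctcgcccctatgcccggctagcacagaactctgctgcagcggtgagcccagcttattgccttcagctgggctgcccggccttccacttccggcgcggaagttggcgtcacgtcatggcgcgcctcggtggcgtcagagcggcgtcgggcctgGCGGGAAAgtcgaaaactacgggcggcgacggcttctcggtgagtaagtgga
XRCC2 promoter, chr7:152676092-152676391, minus strand: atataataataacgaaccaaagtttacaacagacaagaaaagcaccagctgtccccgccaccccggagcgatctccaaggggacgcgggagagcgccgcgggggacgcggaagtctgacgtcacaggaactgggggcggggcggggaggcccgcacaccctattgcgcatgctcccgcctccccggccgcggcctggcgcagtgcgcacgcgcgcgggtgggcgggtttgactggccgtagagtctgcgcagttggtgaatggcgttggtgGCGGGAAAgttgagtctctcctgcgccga
XRCC6 promoter, chr22:41621045-41621344, plus strand: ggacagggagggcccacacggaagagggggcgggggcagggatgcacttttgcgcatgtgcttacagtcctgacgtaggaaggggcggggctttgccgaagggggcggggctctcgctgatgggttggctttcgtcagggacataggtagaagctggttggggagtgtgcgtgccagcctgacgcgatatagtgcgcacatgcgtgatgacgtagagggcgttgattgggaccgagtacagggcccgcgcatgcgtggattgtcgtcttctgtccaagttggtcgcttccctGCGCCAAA
FANCC held the motif at both -172 and -46, FANCD2 at -2, XRCC2 at 22 and XRCC6 at 43, counted from 1 at the first base after the start with no position 0. FANCC had 2 windows, of which 1 held the motif and is printed. A match describes the letters of a window and does not show binding.

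At 6 h most of the module was lower in treated cells. Of the 47 genes, 36 fell and 4 rose at 3 µM, and 7 were not called (edgeR quasi-likelihood test, Benjamini-Hochberg adjusted p under 0.05 over 22007 genes). In all tested genes, 31.6% were called lower and 31.6% higher at that dose and time. At 10 µM, 37 fell, 6 rose and 4 were not called, against 33.6% lower and 34% higher of all tested genes. The median log2 fold change of the 47 was -0.33 at 3 µM and -0.40 at 10 µM, and that of all tested genes was 0.02 and 0.01. A fall of at least 2-fold was called for 7 of the 47 at each dose, against 4.92% of all tested genes at 3 µM and 6.77% at 10 µM, and no repair gene rose by that much, against 8.5% and 10.7%. The tested genes include many with low counts, in which changes are harder to call. A stricter count filter (1 CPM in 5 libraries) kept 14718 genes, with 38.9% lower and 38.7% higher at 3 µM and 40% and 40.4% at 10 µM. Of the 47, 34 then fell and 6 rose at 3 µM, and 36 fell and 7 rose at 10 µM.

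At 24 h the balance was smaller but on the same side. At 3 µM, 26 fell, 8 rose and 13 were not called, against 30.9% lower and 29.7% higher of all tested genes; without DMSO 24 h replicate 2 the rises were 5. At 10 µM, 27 fell, 7 rose and 13 were not called, against 32.3% lower and 31.3% higher. The medians were -0.13 at 3 µM and -0.18 at 10 µM, beside 0.00 and 0.01 for all tested genes. No repair gene fell or rose by 2-fold, although 2.54% and 3.67% of all tested genes were called at least 2-fold lower and 8.62% and 9.33% at least 2-fold higher. With no scaling factor, which moves the median of all genes by over 0.1 at 24 h, the repair genes gave 13 higher and 19 lower at 3 µM and 12 higher and 21 lower at 10 µM. All tested genes then had 62.9% and 62.3% of their calls on the higher side, against 48.9% and 49.2% with TMM. With the stricter count filter, 24 repair genes fell and 8 rose at 3 µM, against 36.8% lower and 36.1% higher of 14718 genes. At 10 µM, 27 fell and 9 rose under that filter, against 38.5% and 37.7%.

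The 47 genes together took 0.433% ± 0.007 of the pairs at genes at 3 µM and 0.418% ± 0.007 at 10 µM (SD, n = 3 each), against 0.497% ± 0.008 in DMSO at 6 h (SD, n = 2). At 24 h the shares were 0.482% ± 0.004 at 3 µM, 0.458% ± 0.004 at 10 µM and 0.520% ± 0.003 in DMSO. Abundant genes weigh most in this share: XRCC5, XRCC6 and PARP1 had means of 837, 792 and 501 CPM in DMSO at 6 h. It therefore does not describe the 47 genes equally. Shares of treated libraries did not overlap those of DMSO libraries at either time. An exact two-sided permutation test of the 6 treated against the 2 DMSO libraries gave p = 0.0357 at each time, the smallest that 28 arrangements allow. The share of uniquely placed pairs outside exons was higher in the same libraries, by 1.71 percentage points at 6 h and 1.44 at 24 h (exact p = 0.0357 each); its part in these results was not tested.

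**Figure D1:**
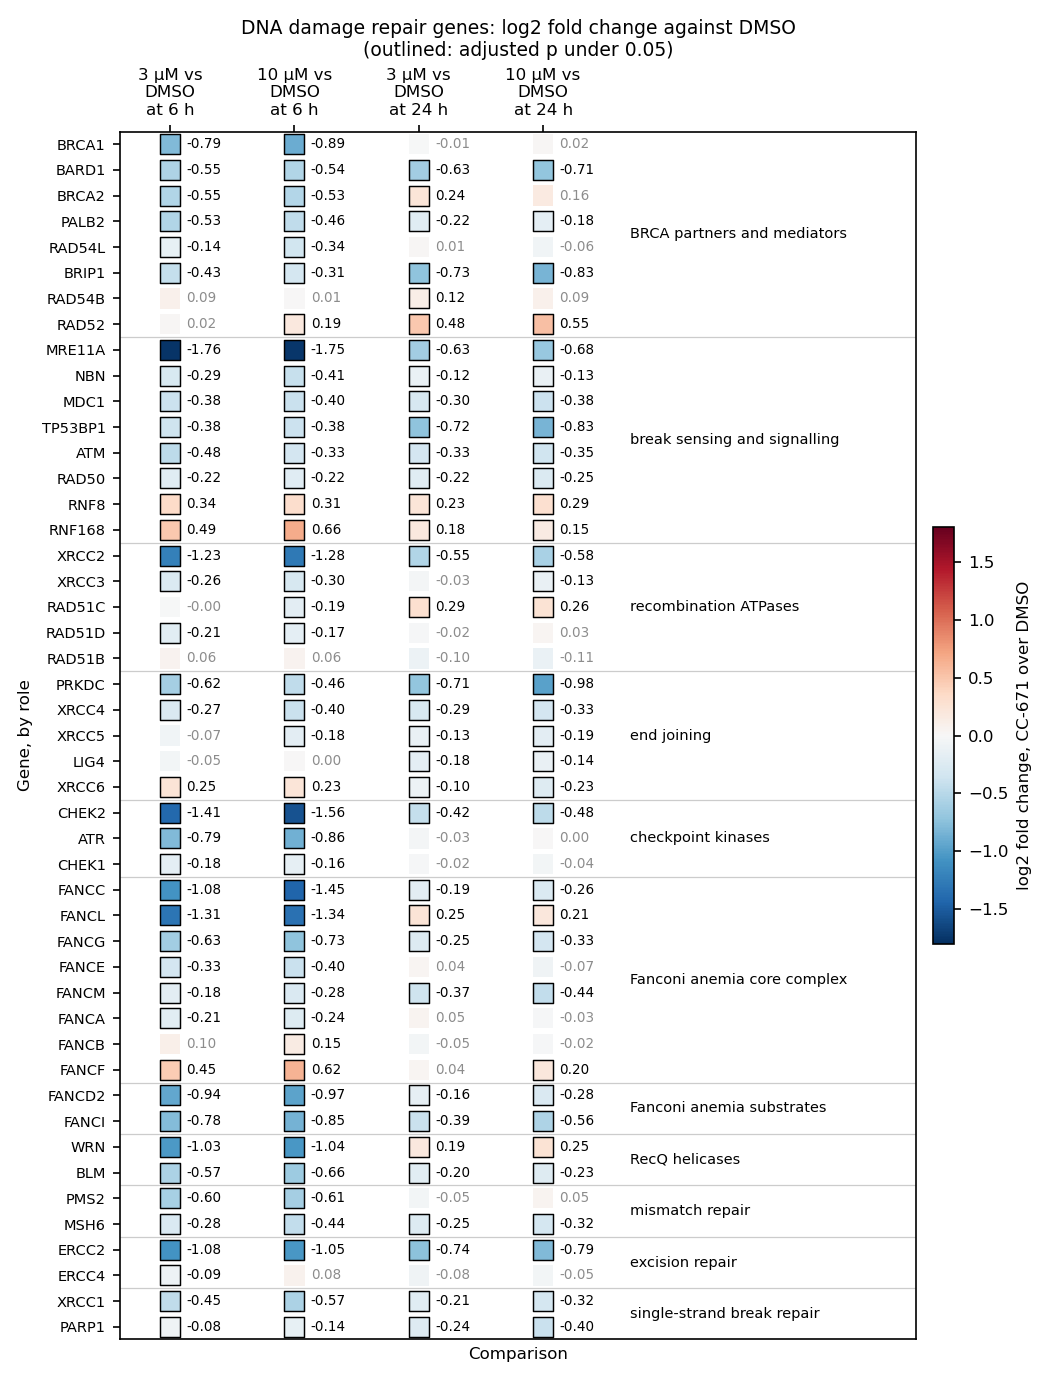
Log2 fold change of CC-671 over DMSO for each of the 47 repair genes (rows, by role) in the 4 comparisons (columns), with outlined squares for adjusted p under 0.05. Blue squares, lower than in DMSO, fill most of both 6 h columns, from -1.76 for MRE11A, and are paler at 24 h.

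Genes that sense and signal breaks gave 6 falls and 2 rises of 8 in each of the 4 comparisons. Of all tested genes, 30.9 to 33.6% fell and 29.7 to 34% rose. With no scaling factor, the falls of ATM and NBN at 24 h were not called at either dose. MRE11A, the nuclease of the sensor complex, had 15.2, 13.1 and 14.2 CPM at 3 µM and 15.3, 12.8 and 14.7 CPM at 10 µM, against 47.2 and 49.0 CPM in DMSO at 6 h. No treated library overlapped a DMSO library, and this was the largest fall of the module, with a log2 fold change of -1.76 ± 0.05 at 3 µM (SE; edgeR adjusted p = 4.59e-19) and -1.75 ± 0.05 at 10 µM (adjusted p = 2.95e-19). At 24 h MRE11A had 34.9, 34.1 and 34.8 CPM at 3 µM and 33.5, 33 and 33.7 CPM at 10 µM, against 54.3 and 52.6 CPM in DMSO, and still fell (-0.63 ± 0.05 and -0.68 ± 0.05). Its partners fell less: RAD50 by 0.22 and NBN, the adaptor that recruits ATM, by 0.29 and 0.41 on the log2 scale at 6 h. At 24 h NBN had means of 244 CPM at 3 µM and 243 CPM at 10 µM, against 266 CPM in DMSO. These 24 h falls of NBN were lost with no scaling factor (edgeR adjusted p = 0.557 and 0.617). RAD50 shares 79.7% of its exon bases with an overlapping locus on the same strand, so its value is uncertain.

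ATM, the kinase at the head of break signalling, had 36.9, 29.9 and 30.3 CPM at 3 µM and 35.0, 31.9 and 40.8 CPM at 10 µM, against 41.5 and 48.6 CPM in DMSO at 6 h. The groups did not overlap, but the highest 10 µM library was close to the lower DMSO library. ATM fell by 0.48 ± 0.11 at 3 µM and by 0.33 ± 0.11 at 10 µM on the log2 scale (edgeR adjusted p = 0.00235 and 0.0186); the 10 µM call was lost without DMSO replicate 2 (adjusted p = 0.187) or 10 µM replicate 2 (0.0523). At 24 h ATM had 48.5, 47.2 and 48.1 CPM at 3 µM and 48.0, 47 and 46.7 CPM at 10 µM, against 60.3 and 60.5 CPM in DMSO. Those falls of 0.33 and 0.35 were each lost when either DMSO library was left out, with adjusted p of 0.054 to 0.0731, and with no scaling factor (0.0913 and 0.0743).

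TP53BP1, which favours end joining at breaks, had 86.3, 79.6 and 85.7 CPM at 3 µM and 86.5, 78.4 and 85.9 CPM at 10 µM, against 109 and 109 CPM in DMSO at 6 h. At 24 h TP53BP1 had 84.1, 81.2 and 82.4 CPM at 3 µM and 78.1, 74.5 and 77.6 CPM at 10 µM, against 138 and 135 CPM in DMSO. DMSO libraries were higher at 24 h than at 6 h, 3 µM libraries overlapped between the times, and 10 µM libraries were lower at 24 h. The log2 fold change was -0.38 ± 0.04 at both doses at 6 h and -0.72 ± 0.04 and -0.83 ± 0.04 at 24 h. TP53BP1 shares 28.7% of its exon bases with TUBGCP4 on the opposite strand. MDC1, the scaffold that binds marked chromatin, fell by 0.30 to 0.40 in the 4 comparisons. The 2 rises were the ubiquitin ligases that act after MDC1: RNF168 (0.49 and 0.66 at 6 h, 0.18 and 0.15 at 24 h, at 3 µM and 10 µM) and RNF8 (0.34, 0.31, 0.23 and 0.29).

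The checkpoint kinases CHEK2, ATR and CHEK1 all fell at 6 h, and of them CHEK2 alone was called at 24 h. Of all tested genes, 31.6% and 33.6% fell at 6 h, at 3 µM and 10 µM, and 30.9% and 32.3% at 24 h. The 33.3% of these kinases that fell at 24 h were thus near the share of all genes. CHEK2, the kinase downstream of ATM, had 8.97, 8.93 and 9.01 CPM at 3 µM and 8.13, 7.93 and 8.13 CPM at 10 µM, against 24.8 and 22.9 CPM in DMSO at 6 h. At 24 h CHEK2 had 19.98, 20.15 and 20.01 CPM at 3 µM and 19.5, 18.2 and 20.2 CPM at 10 µM, against 26.9 and 26.8 CPM in DMSO. The treated groups stood below DMSO without overlap at both times. The log2 fold change was -1.41 ± 0.05 and -1.56 ± 0.05 at 6 h, and -0.42 ± 0.04 and -0.48 ± 0.04 at 24 h (edgeR adjusted p = 4.05e-09 and 3.11e-10). Pseudogenes named CHEK2P2 to CHEK2P5 stand in the same count tables, so reads may have been split between copies.

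ATR, the kinase of replication stress, had 29.2, 25.3 and 28.7 CPM at 3 µM and 26.2, 22.9 and 30.2 CPM at 10 µM, against 45 and 51.1 CPM in DMSO at 6 h. At 24 h ATR had 54.9, 52.1 and 54.1 CPM at 3 µM and 55.1, 54.2 and 55.6 CPM at 10 µM, against 55.1 and 54.8 CPM in DMSO. ATR thus fell at 6 h (-0.79 ± 0.09 and -0.86 ± 0.09), whereas both doses overlapped DMSO at 24 h (-0.03 ± 0.09 and 0.00 ± 0.09). CHEK1, the kinase downstream of ATR, had 47.7, 47.2 and 49.8 CPM at 3 µM and 50.1, 49.2 and 47.6 CPM at 10 µM, against 53.9 and 55.3 CPM in DMSO at 6 h. At 24 h CHEK1 had 52.5, 54.1 and 54.6 CPM at 3 µM and 53.4, 50.5 and 54.1 CPM at 10 µM, against 54.5 and 54.2 CPM in DMSO. Its fall at 6 h was small (-0.18 ± 0.04 and -0.16 ± 0.04), and its 24 h differences were -0.02 ± 0.04 and -0.04 ± 0.04.

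Among the 8 BRCA partners and mediators of recombination, 6 fell at 6 h at each dose, against 31.6% and 33.6% of all tested genes. At 24 h, 3 fell and 3 rose at 3 µM, and 3 fell and 1 rose at 10 µM. Of all tested genes, 30.9% and 32.3% then fell and 29.7% and 31.3% rose, so the 37.5% of the group that fell were near that share. BRCA1, a ubiquitin ligase subunit that promotes recombination, had 48.8, 46.9 and 48.9 CPM at 3 µM and 44.3, 45.8 and 44.6 CPM at 10 µM, against 82.2 and 84.7 CPM in DMSO at 6 h. At 24 h BRCA1 had 92.1, 96.2 and 92.7 CPM at 3 µM and 94.8, 94.7 and 96.9 CPM at 10 µM, against 94.8 and 93.5 CPM in DMSO. The 6 h groups were far apart (-0.79 ± 0.03 and -0.89 ± 0.03; edgeR adjusted p = 6.27e-18 and 2.81e-19), and both doses overlapped DMSO at 24 h and were not called. BARD1, the partner of BRCA1 in that ligase, was lower at both times, by 0.55 and 0.54 at 6 h and by 0.63 and 0.71 at 24 h. PALB2, which joins BRCA1 to BRCA2, fell by 0.53 and 0.46 at 6 h and by 0.22 and 0.18 at 24 h, the last lost with no scaling factor (edgeR adjusted p = 0.129).

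BRCA2, a mediator of recombination, had 25.6, 20.5 and 23.0 CPM at 3 µM and 22.8, 22.4 and 24.6 CPM at 10 µM, against 31.2 and 36.1 CPM in DMSO at 6 h. At 24 h BRCA2 had 43.1, 43.7 and 44.1 CPM at 3 µM and 40.9, 40.6 and 42.5 CPM at 10 µM, against 37.6 and 36.3 CPM in DMSO. Treated libraries were below DMSO at 6 h and above it at 24 h. BRCA2 fell at 6 h (-0.55 ± 0.07 and -0.53 ± 0.07) and rose at 24 h at 3 µM (0.24 ± 0.07; edgeR adjusted p = 0.00934), while 10 µM missed the threshold (0.16 ± 0.07; adjusted p = 0.0607). The rise was lost without DMSO 24 h replicate 2 (adjusted p = 0.0762).

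BRIP1, a helicase that binds BRCA1, had 47, 43.1 and 44.9 CPM at 3 µM and 49.9, 48.3 and 48.2 CPM at 10 µM, against 59.1 and 62.1 CPM in DMSO at 6 h. At 24 h BRIP1 had 38.9, 39.8 and 39.3 CPM at 3 µM and 37.3, 36.0 and 36.7 CPM at 10 µM, against 64.5 and 66.1 CPM in DMSO. The gap was wider at 24 h (-0.73 ± 0.04 and -0.83 ± 0.04) than at 6 h (-0.43 ± 0.04 and -0.31 ± 0.04). RAD52, which anneals single strands, rose, by 0.48 and 0.55 at 24 h and by 0.19 at 10 µM at 6 h. Of the RAD54 translocases of recombination, RAD54L fell at 6 h (0.14 and 0.34), and RAD54B was called only at 3 µM at 24 h, at 0.12 ± 0.05, a call lost under 8 alternatives (edgeR adjusted p up to 0.333 without DMSO 24 h replicate 2). RAD54B shares 59.1% of its exon bases with FSBP on the same strand, and RAD54L shares 25.1% with LRRC41 on the opposite strand.

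**Figure D2:**
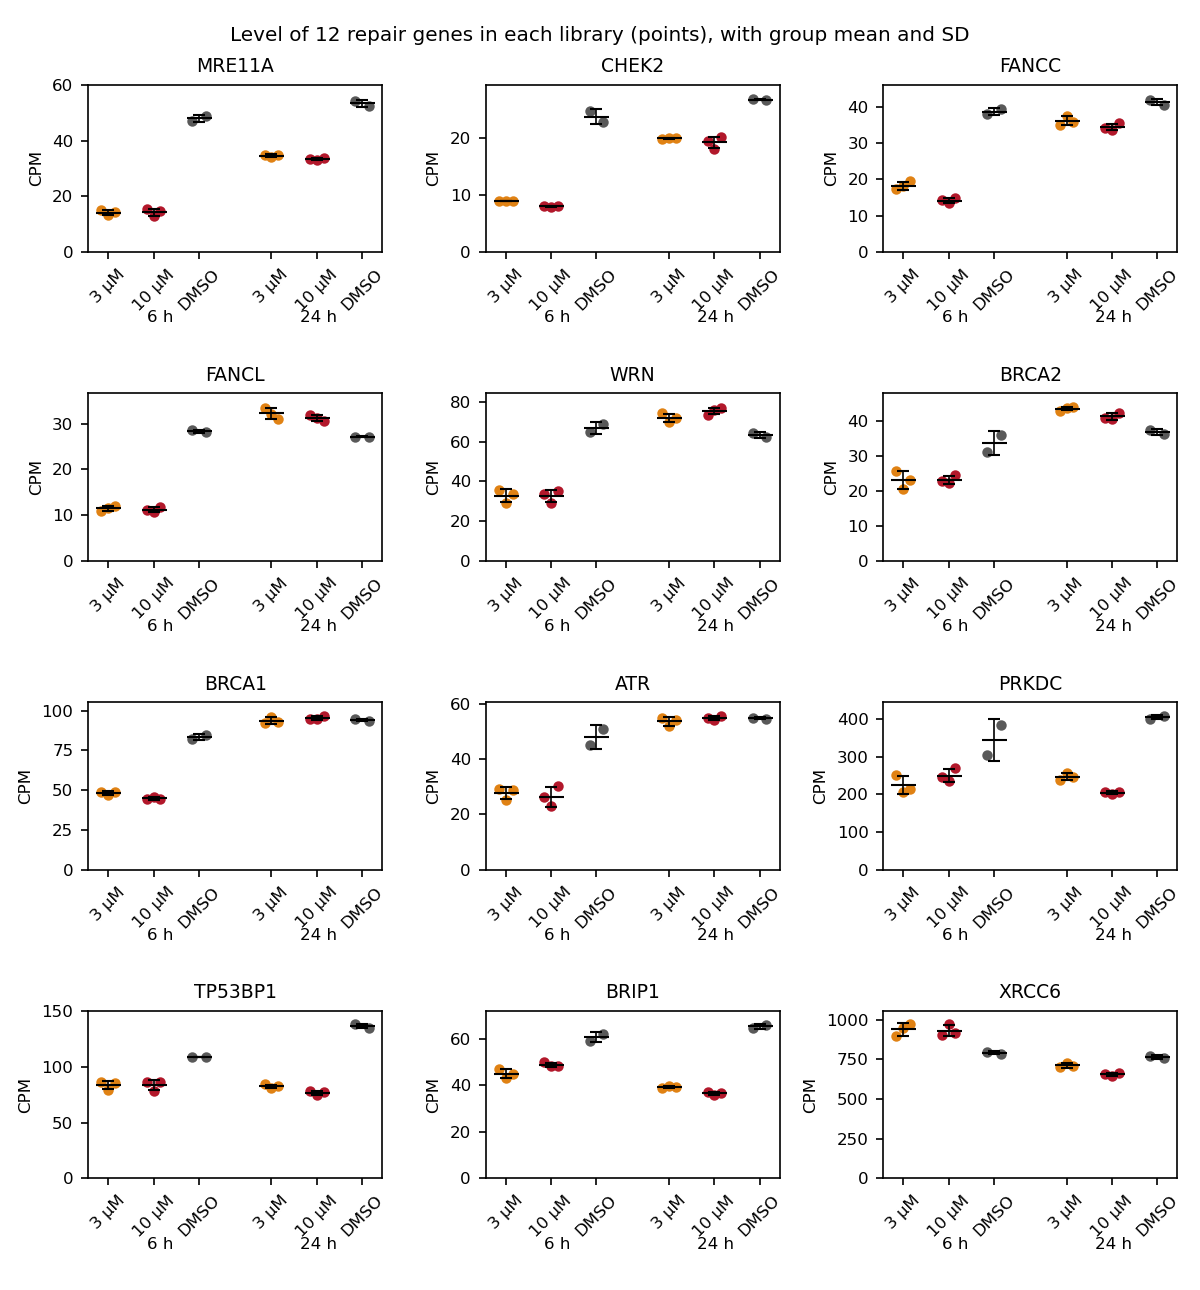
Level in CPM of 12 repair genes in each library (points), by treatment and time, with the group mean and SD (n = 3 treated, n = 2 DMSO). MRE11A, CHEK2, FANCC and FANCL stand lowest in the treated 6 h groups, and FANCL, WRN and BRCA2 stand above DMSO in the treated 24 h groups.

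A group of 5 small ATPases of homologous recombination was uneven. XRCC2 had 21.7, 16.5 and 17.3 CPM at 3 µM and 18.5, 14.1 and 21.0 CPM at 10 µM, against 41.8 and 45.3 CPM in DMSO at 6 h. At 24 h XRCC2 had 28.7, 25.8 and 26.8 CPM at 3 µM and 26.8, 27.6 and 25 CPM at 10 µM, against 38.7 and 40.5 CPM in DMSO. Treated and DMSO libraries were separate at both times, with changes of -1.23 ± 0.14 and -1.28 ± 0.14 at 6 h and of -0.55 ± 0.14 and -0.58 ± 0.14 at 24 h. RAD51C had 44.1, 47.8 and 48.5 CPM at 3 µM and 41.2, 42 and 40.2 CPM at 10 µM, against 48.4 and 45.2 CPM in DMSO at 6 h. At 24 h RAD51C had 50.6, 53 and 52.5 CPM at 3 µM and 50.8, 49.8 and 52.0 CPM at 10 µM, against 43.3 and 41.8 CPM in DMSO. The 3 µM and DMSO libraries overlapped at 6 h, the 10 µM libraries were below DMSO (-0.19 ± 0.04), and both doses were above it at 24 h (0.29 ± 0.04 and 0.26 ± 0.04). RAD51D and XRCC3 fell by 0.17 to 0.30 at 6 h (RAD51D at 10 µM not without DMSO 6 h replicate 2, edgeR adjusted p = 0.0676), and RAD51B was not called in any comparison with DMSO. XRCC3 shares 76.7% of its exon bases with KLC1 on the opposite strand, so its value is uncertain.

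At 6 h the 5 end joining genes gave 1 rise and 2 falls at 3 µM and 1 rise and 3 falls at 10 µM. Of all tested genes, 31.6% rose and 31.6% fell at 3 µM, and 34% and 33.6% at 10 µM. The 3 µM shares of these 5 genes, 20% higher and 40% lower, were not far from that. At 24 h all 5 fell at each dose, against 30.9% and 32.3% lower of all tested genes. With no scaling factor, XRCC6, XRCC5 and LIG4 were not called at 24 h at 3 µM (edgeR adjusted p = 0.938, 0.271 and 0.0929), nor LIG4 at 10 µM (0.578). PRKDC, the catalytic subunit of DNA-PK, had 253, 208 and 214 CPM at 3 µM and 245, 236 and 269 CPM at 10 µM, against 306 and 384 CPM in DMSO at 6 h. At 24 h PRKDC had 239, 257 and 248 CPM at 3 µM and 208, 200.2 and 207 CPM at 10 µM, against 402 and 409 CPM in DMSO. The 2 DMSO libraries at 6 h lay wide apart but above all treated ones, and PRKDC gave the largest fall of the module at 24 h and 10 µM, -0.98 ± 0.10 (edgeR adjusted p = 5.04e-06). It fell by 0.62, 0.46 and 0.71 in the other comparisons.

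The Ku subunits, which cap broken ends, did not follow each other. XRCC6 (Ku70) had 897, 947 and 976 CPM at 3 µM and 904, 971 and 918 CPM at 10 µM, against 798 and 786 CPM in DMSO at 6 h. At 24 h XRCC6 had 699.6, 728 and 709 CPM at 3 µM and 655, 644 and 665 CPM at 10 µM, against 774 and 757 CPM in DMSO. XRCC6 rose at 6 h (0.25 ± 0.04 and 0.23 ± 0.04) and fell at 24 h (-0.10 ± 0.04 and -0.23 ± 0.03). The small 24 h fall at 3 µM (edgeR adjusted p = 0.0121) was lost without DMSO 24 h replicate 1 (0.111) and with a stricter count filter (0.0858).

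XRCC5 (Ku80) had 795, 783 and 820.3 CPM at 3 µM and 737, 732 and 741 CPM at 10 µM, against 829 and 845 CPM in DMSO at 6 h. At 24 h XRCC5 had 752, 777 and 778 CPM at 3 µM and 744, 728 and 749 CPM at 10 µM, against 854 and 834 CPM in DMSO. All treated libraries were below DMSO, with log2 fold changes of -0.07 ± 0.03 (not called), -0.18 ± 0.03, -0.13 ± 0.03 and -0.19 ± 0.03 at 3 µM and 10 µM, first at 6 h and then at 24 h. XRCC4 fell by 0.27 and 0.40 at 6 h and by 0.29 and 0.33 at 24 h. LIG4, the ligase that XRCC4 holds, fell by 0.18 and 0.14 at 24 h. Per kilobase of merged exons, XRCC6 (241 CPM per kb) and XRCC5 (153 CPM per kb) were the most abundant of the 47 in DMSO at 6 h, and RAD51B (0.558 CPM per kb) the least.

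The Fanconi anemia core complex held both large falls and a rise. FANCC had 17.3, 18.1 and 19.5 CPM at 3 µM and 14.3, 13.5 and 14.8 CPM at 10 µM, against 38.0 and 39.4 CPM in DMSO at 6 h. At 24 h FANCC had 35.1, 37.5 and 36.0 CPM at 3 µM and 34.2, 33.7 and 35.5 CPM at 10 µM, against 41.9 and 40.7 CPM in DMSO. The 10 µM libraries were below the 3 µM libraries at 6 h, and both were below DMSO (-1.45 ± 0.05 and -1.08 ± 0.05, at 10 µM and 3 µM). At 24 h the falls were 0.19 and 0.26 at 3 µM and 10 µM, the first lost with no scaling factor (edgeR adjusted p = 0.0795).

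FANCL, the ubiquitin ligase subunit of the core complex, had 10.9, 11.5 and 11.9 CPM at 3 µM and 11.1, 10.7 and 11.7 CPM at 10 µM, against 28.6 and 28.1 CPM in DMSO at 6 h. At 24 h FANCL had 33.5, 32.1 and 31.1 CPM at 3 µM and 31.9, 31.3 and 30.5 CPM at 10 µM, against 27.2 and 27.1 CPM in DMSO. Treated libraries were all below DMSO at 6 h and all above it at 24 h (-1.31 ± 0.04 and -1.34 ± 0.04, then 0.25 ± 0.04 and 0.21 ± 0.04). FANCF, an adaptor of the complex, rose at 6 h by 0.45 and 0.62. FANCG fell at 6 h by 0.63 and 0.73, and FANCM, the helicase that anchors the complex, fell by 0.18 to 0.44 in the 4 comparisons. FANCE and FANCA fell at 6 h only (by 0.33 and 0.40, and by 0.21 and 0.24), and FANCB rose at 10 µM at 6 h alone (0.15). Without DMSO 6 h replicate 2 both FANCA falls (edgeR adjusted p = 0.109 and 0.0605) and the FANCB rise (0.0654) were lost; the FANCA fall at 3 µM and the FANCB rise were also lost without DMSO 6 h replicate 1 (0.0788 and 0.0531) or some treated libraries.

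FANCD2, which the core complex ubiquitylates, had 66.7, 57.2 and 61.9 CPM at 3 µM and 62.7, 53.8 and 65 CPM at 10 µM, against 117 and 120.1 CPM in DMSO at 6 h. At 24 h FANCD2 had 113, 115 and 109.5 CPM at 3 µM and 103, 102 and 106 CPM at 10 µM, against 126 and 126 CPM in DMSO. FANCD2 was near the 2-fold mark at 6 h (-0.94 ± 0.07 and -0.97 ± 0.07). Its 24 h fall at 3 µM (-0.16 ± 0.07; edgeR adjusted p = 0.0456) was lost when any 1 library of either group was left out, with adjusted p of 0.0512 to 0.14, with a stricter count filter (0.0934) and with no scaling factor (0.477). The fall of 0.28 at 10 µM was lost with no scaling factor (adjusted p = 0.0528). FANCI, its partner, fell by 0.78 and 0.85 at 6 h and by 0.39 and 0.56 at 24 h.

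The RecQ helicases unwind recombination intermediates. WRN had 35.4, 29.2 and 33.7 CPM at 3 µM and 33.6, 29.1 and 34.9 CPM at 10 µM, against 64.9 and 69.1 CPM in DMSO at 6 h. At 24 h WRN had 74.2, 70.0 and 71.8 CPM at 3 µM and 73.5, 75.9 and 76.9 CPM at 10 µM, against 64.2 and 62.2 CPM in DMSO. WRN fell at 6 h (-1.03 ± 0.08 and -1.04 ± 0.08) and rose at 24 h (0.19 ± 0.08 and 0.25 ± 0.08; edgeR adjusted p = 0.0483 and 0.0103). Without DMSO 24 h replicate 2 both rises were lost (adjusted p = 0.204 and 0.0746), and the 3 µM rise was also lost without DMSO 24 h replicate 1 (0.111), 3 µM replicate 1 (0.109) or 3 µM replicate 3 (0.075).

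BLM had 45.7, 43.7 and 47.5 CPM at 3 µM and 43.5, 41.3 and 43.9 CPM at 10 µM, against 67.3 and 68.3 CPM in DMSO at 6 h. At 24 h BLM had 63.4, 64.7 and 63.5 CPM at 3 µM and 62.2, 62.4 and 63.8 CPM at 10 µM, against 74.5 and 72.7 CPM in DMSO. BLM fell at both times, more at 6 h (0.57 and 0.66) than at 24 h (0.20 and 0.23). ERCC2, the XPD helicase of nucleotide excision repair, had 31.4, 28.7 and 31.1 CPM at 3 µM and 32.5, 28.4 and 31.9 CPM at 10 µM, against 65 and 63.5 CPM in DMSO at 6 h. At 24 h ERCC2 had 41.0, 36.0 and 36.9 CPM at 3 µM and 36.4, 38.0 and 35.6 CPM at 10 µM, against 62.6 and 64.4 CPM in DMSO. ERCC2 stayed low at 24 h (-0.74 ± 0.06 and -0.79 ± 0.06), after -1.08 ± 0.06 and -1.05 ± 0.06 at 6 h.

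PARP1, which marks single-strand breaks, had 467, 470.4 and 481 CPM at 3 µM and 449, 458 and 455 CPM at 10 µM, against 500.4 and 502 CPM in DMSO at 6 h. At 24 h PARP1 had 443, 454 and 442 CPM at 3 µM and 398, 391 and 403 CPM at 10 µM, against 531 and 521 CPM in DMSO. PARP1 fell little at 6 h (0.08 and 0.14) and more at 24 h (0.24 and 0.40); the 3 µM call at 6 h was lost without DMSO replicate 2 (edgeR adjusted p = 0.0602). XRCC1, the scaffold that PARP1 recruits, fell by 0.45 and 0.57 at 6 h and by 0.21 and 0.32 at 24 h. In mismatch repair, PMS2 fell by 0.60 and 0.61 at 6 h and was not called at 24 h, and MSH6 fell in all 4 comparisons by 0.25 to 0.44. Pseudogenes of PMS2, PARP1, XRCC6 and FANCD2 are listed in the count tables too, with the same uncertainty. ERCC4, a nucleotide excision nuclease, was called only at 3 µM at 6 h, at -0.09 ± 0.04, a call lost under 8 alternatives (edgeR adjusted p up to 0.307 without DMSO 6 h replicate 2). ERCC4 shares 25.7% of its exon bases, and FANCA 23.6%, with loci on the opposite strand.

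The 2 doses were set against each other directly. At 6 h, 9 repair genes were lower and 5 higher at 10 µM than at 3 µM, against 12.9% lower and 12% higher of all tested genes. FANCC differed most, by -0.37 ± 0.04 (edgeR adjusted p = 1e-06), and RNF168 and FANCF were higher by 0.17 each. At 24 h, PARP1 (-0.17 ± 0.03), XRCC6 (-0.12 ± 0.03) and XRCC1 (-0.11 ± 0.03) were lower and FANCF was higher (0.16 ± 0.05), against 3.85% lower and 2.49% higher of all tested genes. Of these 4 calls, that of PARP1 held when any 1 library was left out, while those of XRCC6, XRCC1 and FANCF were lost in 4, 6 and 5 of the 6 cases (adjusted p up to 0.11, 0.202 and 0.251). The 24 h counts also moved with the fit: with only these 2 groups fitted, 16 genes were lower and 3 higher. PRKDC had the widest 24 h difference, -0.27 ± 0.09, and was not called (adjusted p = 0.122).

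Vehicle time alone moved part of the module. In DMSO, 11 repair genes were higher and 2 lower at 24 h than at 6 h, against 11% higher and 9.55% lower of all tested genes. RAD51B (0.58 ± 0.09), ATM (0.42 ± 0.12) and TP53BP1 (0.33 ± 0.04) led the rises, and RAD51C and XRCC3 fell by 0.14 and 0.11. These counts dropped to between 5 and 10 higher and 0 and 1 lower when any 1 DMSO library was left out; the calls of RAD51B and TP53BP1 held throughout, and those of ATM, RAD51C and XRCC3 were lost in 3, 3 and 4 of the 4 cases (edgeR adjusted p up to 0.194, 0.302 and 0.197).

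The change between times was tested as the effect of a dose at 24 h minus its effect at 6 h. At 3 µM this difference was positive for 24 repair genes and negative for 7, against 25.6% and 23.7% of all tested genes, with a median of 0.17. At 10 µM it was positive for 24 and negative for 12, against 27.6% and 26.4%, with a median of 0.21. The 12 became 7 without DMSO 6 h replicate 1 and 7 with no scaling factor. FANCL gave 1.56 ± 0.06 and 1.55 ± 0.06, WRN 1.22 ± 0.11 and 1.30 ± 0.11, and MRE11A 1.13 ± 0.07 and 1.07 ± 0.07, at 3 µM and 10 µM. The negative differences were led by FANCF, XRCC6 and TP53BP1 at 3 µM (-0.41, -0.35 and -0.35) and by PRKDC, BRIP1 and RNF168 at 10 µM (-0.52, -0.52 and -0.51).

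Grouped by their calls at both times, 23 repair genes (48.9%) were lower at 6 h and at 24 h at 3 µM, and 25 (53.2%) at 10 µM, against 18.4% and 19.4% of all tested genes. Another 10 at 3 µM and 9 at 10 µM were lower at 6 h and not called at 24 h, against 9.21% and 9.12% of all tested genes, with BRCA1, ATR, CHEK1 and PMS2 among them at both doses. BRCA2, FANCL and WRN at 3 µM, and RAD51C, FANCL and WRN at 10 µM, were lower at 6 h and higher at 24 h, a pattern of 4% and 5.06% of all tested genes. Of the 47, XRCC6 alone was higher at 6 h and lower at 24 h, at both doses, as were 4.68% and 5.43% of all tested genes.

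**Figure D3:**
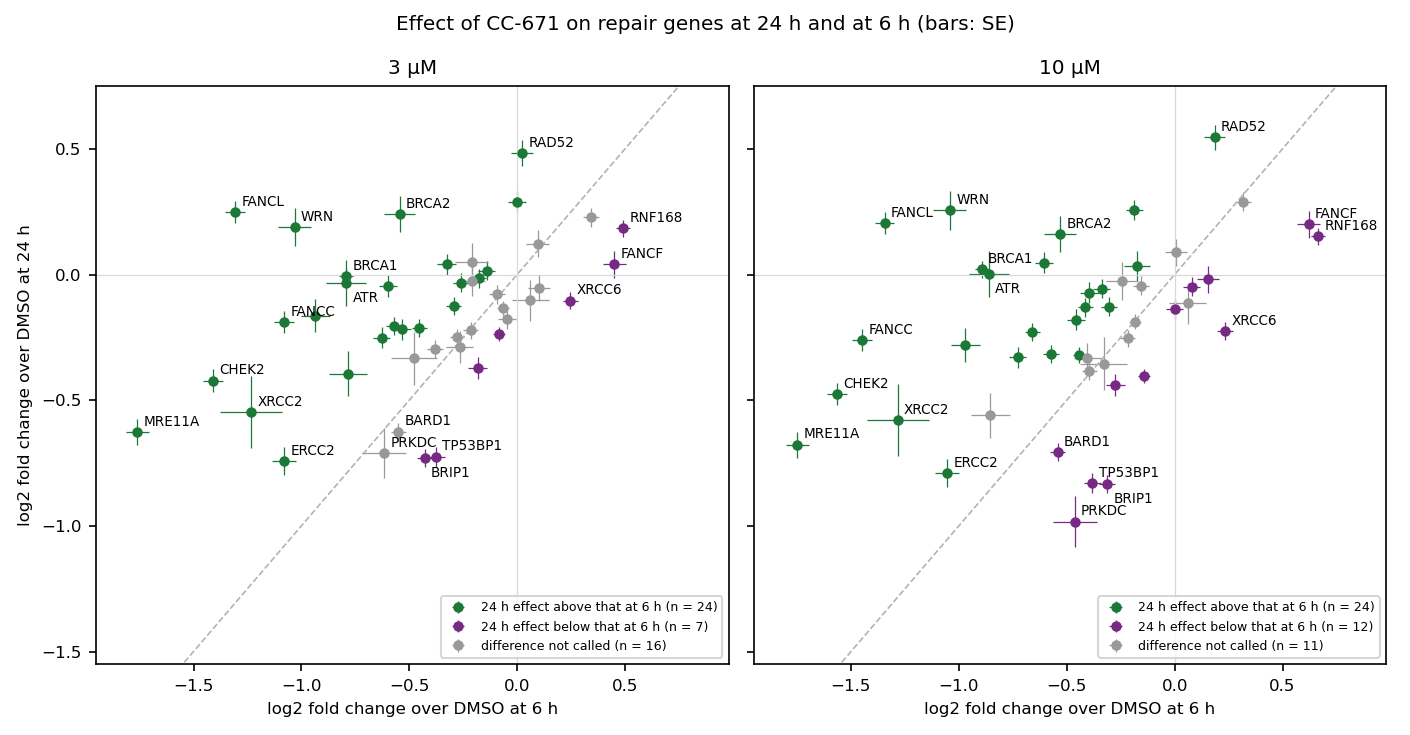
Log2 fold change over DMSO at 24 h against that at 6 h for the 47 repair genes at 3 µM and 10 µM, with SE bars and colours for the test of their difference. Most genes lie left of 0 and above the dashed line of equal effect, 24 of them called at each dose, while BRIP1, TP53BP1 and PRKDC lie below it at 10 µM.

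Exon number, which the choice of genes did not use, was high in the module. The longest annotated transcripts of the 47 had a median of 15 exons, against 9 in 14623 tested protein-coding genes matched by symbol to GENCODE 29. Across the 47 genes, Spearman's rho between exon number and log2 fold change was -0.469 at 3 µM and -0.423 at 10 µM at 6 h, and -0.268 and -0.308 at 24 h. Across the protein-coding genes it was -0.332, -0.317, -0.12 and -0.13. These are descriptions, since the genes share libraries. Among the 40 repair genes with up to 32 exons it was -0.409, -0.393, -0.322 and -0.36. In DMSO at 24 h against 6 h, with no drug, rho was 0.516 across the 47 genes and 0.234 across the protein-coding genes. A relation with exon number was thus also present between vehicle groups, in the opposite direction. Genomic span, the length of a gene on its chromosome, gave -0.241, -0.23, -0.142 and -0.151 in the 47 for the drug comparisons. In the protein-coding genes span gave -0.271, -0.252, -0.184 and -0.178. Length of the longest transcript gave -0.146, -0.052, -0.252 and -0.22 in the 47. In DMSO at 24 h against 6 h, span gave 0.561 in the 47 and 0.29 in the protein-coding genes, and transcript length 0.595 and 0.343. The vehicle and drug comparisons share DMSO libraries, so their signs are not independent. The part of each measure was not tested.

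Within the same exon range the repair genes were mostly lower than other protein-coding genes at 6 h. The 20 with 9 to 16 exons had a median of -0.40 at 10 µM, against -0.12 in 4461 protein-coding genes, and the 13 with 17 to 32 exons had -0.38, against -0.31 in 2453. The 7 with more than 32 exons, among them ATR, FANCD2 and PRKDC, had -0.85, against -0.33 in 561. XRCC2, with 3 exons, fell by 1.28, while FANCF, with 1 exon, rose. The rise of pairs outside exons in treated libraries accompanied these falls, and its part in them was not tested.

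**Figure D4:**
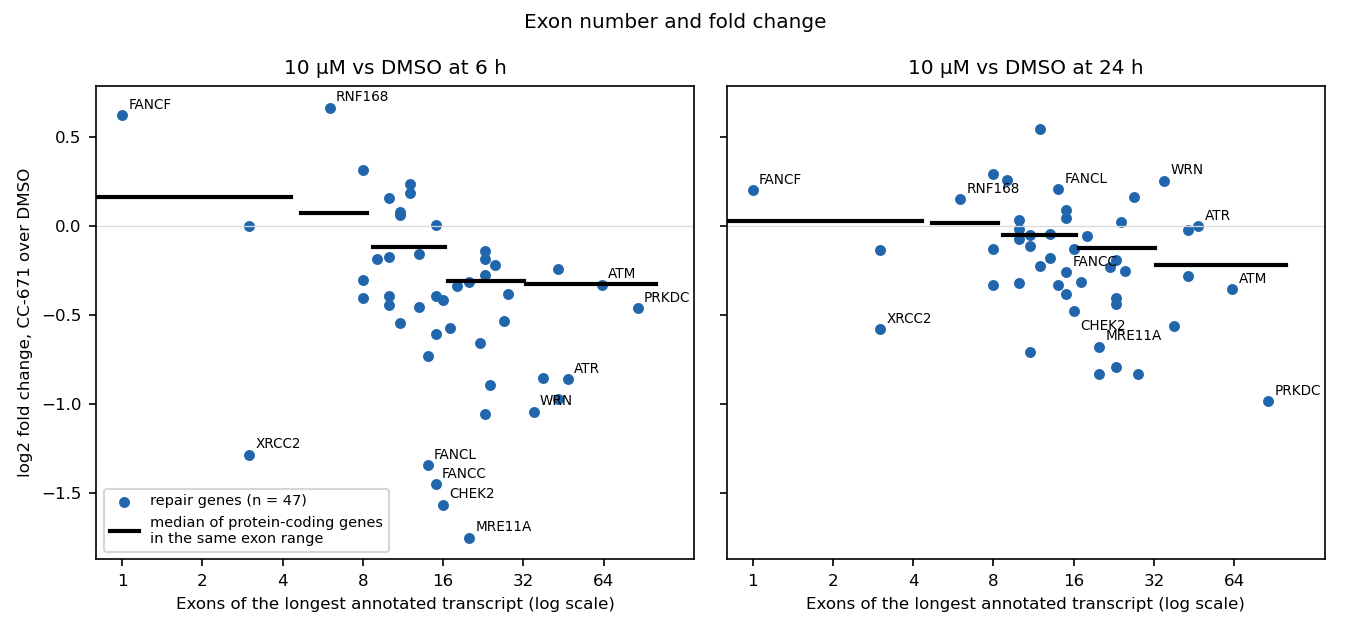
Log2 fold change at 10 µM over DMSO against exon number (log scale) of the 47 repair genes at 6 h and 24 h, with bars for the median of protein-coding genes in each exon range. At 6 h the genes with more than 32 exons have a median of -0.85, below the bar at -0.33.

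A list of 121 other repair genes, of which 119 were tested, was also called lower more often than higher. At 6 h, 73 fell and 26 rose at 3 µM and 79 fell and 27 rose at 10 µM, with medians of -0.26 and -0.32. At 24 h, 55 fell and 33 rose at 3 µM, and 56 fell and 37 rose at 10 µM. In this order the falls were 61.3%, 66.4%, 46.2% and 47.1%, against 31.6%, 33.6%, 30.9% and 32.3% of all tested genes. The rises were 21.8%, 22.7%, 27.7% and 31.1%, against 31.6%, 34%, 29.7% and 31.3%. Those at 24 h were thus near the share of all genes. SFR1, a cofactor of homologous recombination, fell by 2.25 and 2.48 at 6 h, GTF2H2, a subunit of the repair factor TFIIH, by 1.70 and 2.18, and FAM175A, a subunit of a BRCA1 complex, by 1.97 and 1.87. The 3 mismatch repair genes of the list, among them MSH3 and PMS1, fell in all 4 comparisons. Of the 20 nucleotide excision repair genes in this list, 9 rose and 7 fell at 3 µM and 11 rose and 7 fell at 10 µM at 24 h, against 29.7% and 31.3% higher and 30.9% and 32.3% lower of all tested genes, while in the module ERCC2 fell and ERCC4 was not called. GTF2H4, another TFIIH subunit, rose by 1.99 ± 0.31 and 2.00 ± 0.31 (SE), and DDB2, a damage sensor of that pathway and a p53 target, rose by 1.22 ± 0.05 and 1.15 ± 0.05.

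In 30 S phase replication genes, 16 fell and 9 rose at 3 µM and 18 fell and 7 rose at 10 µM at 6 h, and 18 fell and 7 rose, and 20 fell and 6 rose, at 24 h. CDC45, which fires replication origins, fell by 1.44 and 1.61 at 6 h, and RRM2, a subunit of ribonucleotide reductase, by 0.79 and 0.95 at 24 h. Of 20 p53 targets, 19 rose at each dose at 6 h and 20 at 24 h, and none fell. Of all tested genes, 31.6% and 34% rose at 6 h, at 3 µM and 10 µM, and 29.7% and 31.3% at 24 h. Falls were 31.6% and 33.6% of all tested genes at 6 h, and 30.9% and 32.3% at 24 h. The 30% of replication genes that rose at 3 µM at 6 h were thus near the share of all genes.

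**Figure D5:**
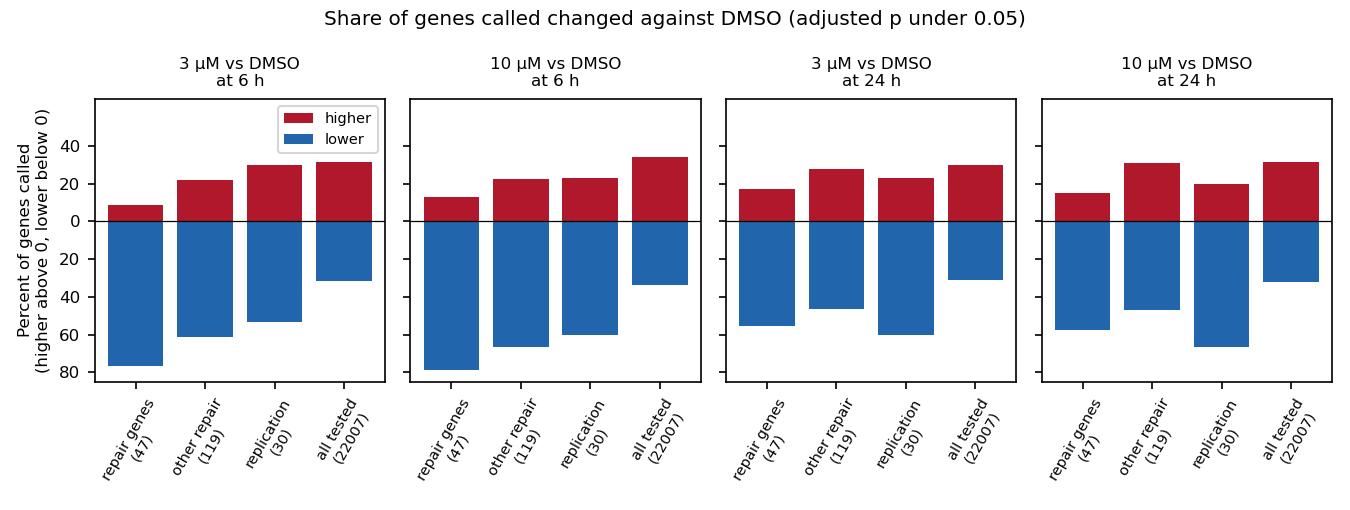
Percent of genes called higher (above 0) and lower (below 0) than DMSO among the 47 repair genes, 119 other repair genes, 30 replication genes and all 22007 tested genes, in the 4 comparisons. The lower share of the 47 is 76.6% and 78.7% at 6 h and 55.3% and 57.4% at 24 h, and that of all genes is 30.9 to 33.6%.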

How the data were processed

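Poly-A RNA was sequenced as strand-specific paired reads, per the labels' protocols, and each deposited file holds the authors' raw counts, in read pairs by gene symbol, for 1 of 16 libraries. The submitters' processing notes name STAR, HTSeq and edgeR and the build hg19 (GRCh37). The annotation release, strand setting and duplicate handling were not given in the sources used here, so overlapping genes and genes with pseudogenes are uncertain. Non-gene entries, 16.9 to 20.2% of pairs, were left out of library sizes and tests. Libraries of a group differed by more than sampling noise (chi-square per gene 2.51 to 19.1), so none was a copy of another. This value cannot tell separate cultures from separate libraries of the same RNA.

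Genes were kept by filterByExpr (minimum count 10, total 15) in edgeR 4.0.16 under R 4.3.3, scaled by TMM, and fitted with 6 group means by robust quasi-likelihood F tests over all libraries. The 9 comparisons were each dose against DMSO and the higher dose against the lower at each time, DMSO at 24 h against 6 h, and the 24 h minus the 6 h effect of each dose. Tests were two-sided, Benjamini-Hochberg adjusted over 22007 genes. The scripts were tested on simulated data. The 47 genes and the other lists were chosen with earlier results of these data known. Values of every library are printed for the 4 genes with the largest change in each comparison with DMSO, those called in opposite directions at the 2 times, and 12 genes followed throughout, and up to 2 called genes of each other list are named per comparison by size of change.

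Alternatives were DESeq2 1.42.0, voom in limma 3.58.1, RLE or no scaling, no filter or a stricter one (1 CPM in 5 libraries), only the groups compared, a replicate block, and each library left out. Exon numbers come from GENCODE 29 on GRCh38, another build than that of the counts, and give no positions. It matched 79.5% of the tested symbols, too few for a comparison over all genes, so the 14623 matched protein-coding genes are used.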

Additional observations from a re-analysis of the deposited data

Results flagged for a closer look

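The effect of CC-671 differed between 24 h and 6 h for most of the repair genes by the test of that difference (edgeR, adjusted p under 0.05). In a gene that fell at 6 h, a positive difference (24 h minus 6 h) means a smaller fall, or a rise, at 24 h. At 3 µM the difference was positive for 24 genes and negative for 7, against 25.6% and 23.7% of all tested genes. At 10 µM these were 24 and 12, against 27.6% and 26.4%, and the 12 became 7 without DMSO 6 h replicate 1 or with no scaling factor. A fall at 6 h with a rise at 24 h was called for 6.38% of the repair genes at each dose, against 4% and 5.06% of all tested genes. A rise followed by a fall was called for 2.13%, against 4.68% and 5.43%. The genes named next were called in opposite directions at the 2 times. Of their 24 h calls, those of WRN at both doses and of BRCA2 and XRCC6 at 3 µM were lost when 1 DMSO 24 h library was left out. At 3 µM the difference of effects (24 h minus 6 h, log2) was 0.78 for BRCA2, 1.56 for FANCL, 1.22 for WRN and -0.35 for XRCC6. At 10 µM it was 1.55 for FANCL, 0.44 for RAD51C, 1.30 for WRN and -0.46 for XRCC6.

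Read pairs outside exons, which no comparison of genes used, took a larger share in treated than in DMSO libraries, by 1.71 percentage points at 6 h and 1.44 at 24 h. Their part in the values of the repair genes was not tested.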

How the results depend on the processing

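No repair gene changed direction between calls under any alternative, and the counts of falls against DMSO moved by less than 1.5 times except as given here. With no scaling factor, the rises were 13 at 3 µM and 12 at 10 µM at 24 h, the DMSO genes lower at 24 h were 1, and the negative time differences at 10 µM were 7. With only the groups compared, 10 µM against 3 µM gave 3 higher genes at 6 h, and 3 higher and 16 lower at 24 h. In that 24 h dose comparison DESeq2 gave 6 lower genes, and limma-voom, RLE scaling and the replicate block each gave 0 higher. The cause was not tested.

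Leaving out 1 library gave 5 to 7 rises at 3 µM at 24 h, the lowest without DMSO 24 h replicate 2. It gave 0 to 1 higher and 1 to 2 lower genes for 10 µM against 3 µM at 24 h, and 5 to 10 higher and 0 to 1 lower for DMSO at 24 h against 6 h. The negative time differences at 10 µM numbered 7 to 11, the lowest without DMSO 6 h replicate 1. Where 1 DMSO library remains, it is assumed to vary like the other groups.

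Same-numbered libraries of different groups did not deviate together (r of -0.0542 to 0.0602), so the numbers are not taken as pairs. With the replicate block, DMSO at 24 h against 6 h gave 1 lower gene in place of 2, and the other counts, apart from the one above, stayed within 1.5 times. No repair gene had fewer than 454 counts in a library, and with 2 DMSO libraries per time some calls of small changes were lost when 1 of them was left out.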
